A study of Mus musculus with 2 samples.

Results

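A set of 10 genes of cytotoxic lymphocytes were followed across the nonparenchymal cells (NPCs) of normal and fibrotic mouse liver: the granzymes Gzma, Gzmb and Gzmk, the pore-forming protein Prf1, the granule membrane protein Nkg7, the death ligand Fasl, the cytokine Ifng, the receptors Klrk1 and Klrd1, and the transcription factor Eomes. They were named as a list and matched by symbol, and all 10 were found among the 19219 genes listed in both libraries. Natural killer (NK) cells and CD8 T cells kill by releasing perforin, which opens the target cell's membrane, and granzymes, which are proteases that then enter and start cell death. Fasl kills by a separate route, through the death receptor Fas. Klrk1 (NKG2D) recognises stress-induced ligands, Klrd1 (CD94) pairs with Klrc proteins to read the class I molecule Qa-1, and interferon-gamma, the product of Ifng, activates macrophages. The liver is rich in NK cells, in type 1 innate lymphoid cells (ILC1) and in T cells that carry the homing receptor Cxcr6.

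Single-cell RNA-seq was run on NPCs from C57BL/6 male mice that were 8 weeks old. The fibrotic mouse received carbon tetrachloride (CCl4), a hepatotoxin, and the normal mouse received the olive oil vehicle, with 2 injections per week for 6 weeks. Each group was 1 library, so no difference between groups has a replicate check, no test between them was run, and every interval covers counting error only. Levels are unique molecular identifiers (UMIs, 1 per captured molecule) of a gene per 10000 UMIs of a cell class, with 95% exact Poisson intervals.

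The normal library held 8130 cells and 44062632 UMIs (median 4144.5 per cell) and the fibrotic library 6437 cells and 53288463 UMIs (median 5619). After removal of cells over the 10% mitochondrial limit, 7471 and 6132 cells remained. The class of NK and T cells (NK/T) held 1011 normal cells, 13.5% of those kept, and 675 fibrotic cells, 11.01%. Its median depth was 3794 UMIs in the normal and 2593 in the fibrotic library, so shares of cells with a UMI were compared after each cell was thinned to 1000 UMIs. Only 15 cell barcodes occurred in both libraries.

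Cells were named without the 10 genes. The NK-like cells (97 normal, 86 fibrotic) carried 96.9 and 89.2 UMIs per 10000 of 16 NK markers, against 12.04 and 10.3 in the CD8 T-like cells. The ILC1-marker cells without a Cd3 UMI, described below, carried 63.5 and 51.7 of them. This list also served to name the cluster, so the sums describe it and do not test its name. CD8 T-like cells (229 and 143) were NK/T cells with UMIs of Cd3 and Cd8 genes, and Cxcr6 T-like cells (308 and 79) had UMIs of Cd3 genes and Cxcr6. Both gates need a UMI to be seen and so depend on depth. The class also held a sub-cluster led by endothelial genes such as Ptprb and Lyve1 (88 and 39 cells, median depths of 7850.5 and 10464 UMIs) and an unnamed one (156 and 140 cells, 1974 and 1469 UMIs), and 767 and 496 cells were left without both. A further cluster (93 and 68 cells) took the ILC1 name and is called the ILC1-marker cluster. Among its leading genes the listed ILC1 markers were Ncr1 and Fcer1g in the normal and Ncr1 in the fibrotic library, which are also NK markers. All but 28 and 45 of its cells had a Cd3 UMI, and those without one are given separately. These carried 66.5 and 51.0 UMIs per 10000 of the 12 ILC1 markers, against 45.0 and 29.6 in NK-like cells. A cluster led by Ccr7 and Lef1, genes of naive T cells, held 119 and 94 cells.

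The sequences before the RefSeq start of 4 of the genes are shown because Gzma, Gzmb and Ifng were the members whose levels were lower past 2-fold in both fibrotic T-cell classes (for Gzma, the limits of this are given beside its ratios), and because Gzmk is a neighbour of Gzma. Gzma lies at chr13:113093825-113100981 and Gzmk at chr13:113171608-113225908, both on the minus strand and 70.6 kb apart. Gzmb lies at chr14:56258838-56262260 on the minus strand, and Ifng at chr10:118441046-118445892 on the plus strand (GRCm38). Each line gives the 250 bases before the RefSeq transcription start (GRCm38.p6), 5′ to 3′ on the gene's strand, in the order chr13:113100982-113101231, chr14:56262335-56262584, chr10:118440796-118441045 and chr13:113180966-113181215. The gene coordinates are those of GENCODE, and the RefSeq starts differ from them for Gzmk, whose window lies inside the gene span given, and for Gzmb, whose start lies just outside it. Capitals mark the motifs searched.
Gzma: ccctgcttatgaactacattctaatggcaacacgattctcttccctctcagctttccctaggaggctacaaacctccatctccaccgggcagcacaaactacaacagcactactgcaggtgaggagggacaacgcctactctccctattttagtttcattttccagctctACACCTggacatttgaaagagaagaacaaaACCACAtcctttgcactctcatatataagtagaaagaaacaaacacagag
Gzmb: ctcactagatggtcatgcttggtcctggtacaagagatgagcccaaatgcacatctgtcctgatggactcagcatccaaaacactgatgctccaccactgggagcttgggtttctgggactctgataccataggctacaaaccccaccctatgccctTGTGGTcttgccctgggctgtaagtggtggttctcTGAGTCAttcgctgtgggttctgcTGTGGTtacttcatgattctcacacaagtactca
Ifng: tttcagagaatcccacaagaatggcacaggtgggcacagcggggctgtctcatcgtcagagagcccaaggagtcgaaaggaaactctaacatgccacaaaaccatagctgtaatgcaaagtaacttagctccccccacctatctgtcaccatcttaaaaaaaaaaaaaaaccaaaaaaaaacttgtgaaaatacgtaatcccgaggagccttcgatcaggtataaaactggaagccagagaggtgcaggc
Gzmk: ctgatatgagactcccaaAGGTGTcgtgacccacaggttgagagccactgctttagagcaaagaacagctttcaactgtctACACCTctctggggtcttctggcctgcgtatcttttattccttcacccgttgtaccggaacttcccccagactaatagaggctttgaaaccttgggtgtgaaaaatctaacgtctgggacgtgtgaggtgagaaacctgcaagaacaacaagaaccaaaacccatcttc

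The motifs were AGGTGT (T-box), TGTGGT (Runx), TGANTCA (AP-1) and TGACGTCA (CRE), each searched on both strands, in the promoters of the 9 members that had a RefSeq entry, all but Klrd1. The T-box letters were found in 4 of the 9 (Gzma, Gzmk, Nkg7 and Prf1), against 11.8% of 32851 promoters. The Runx letters were found in 5 (Gzma, Gzmb, Klrk1, Nkg7 and Prf1), against 14.05%. The AP-1 letters were found in Gzmb alone, 52 bases upstream, against 6.75% of promoters, and the CRE letters in none of the 9, against 1.55%. In Gzma the T-box match lay 75 and the Runx match 45 bases upstream, and in Gzmk the 2 T-box matches lay 227 and 164 bases upstream. No motif was found in this window of Ifng, Fasl or Eomes. A match is a description of the letters and not evidence of a bound site.

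Gzma was the most abundant member in NK-like cells. It stood at 58.3 UMIs per 10000 (55.7–60.9) in the normal and 50.2 (47.1–53.6) in the fibrotic library. In CD8 T-like cells it stood at 11.5 (10.8–12.2) and 3.38 (2.91–3.90), and in Cxcr6 T-like cells at 3.05 and 0.757. ILC1-marker cells without a Cd3 UMI held 7.07 and 6.07, while the whole ILC1-marker cluster, its T cells included, held 39.7 and 8.19. In both libraries NK-like cells thus stood above CD8 T-like cells and these above Cxcr6 T-like cells, with no overlap of the intervals between NK-like and CD8 T-like cells. B-cell-like cells, which should lack the gene, held 0.168 and 0.130, and this is taken as the background.

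Gzmb had another order. Among these classes, ILC1-marker cells without a Cd3 UMI held most in the normal liver, 11.1 UMIs per 10000. The whole ILC1-marker cluster, its T cells included, held 21.4 in the normal and 4.67 in the fibrotic liver. Among the classes, CD8 T-like cells stood at 7.15 and NK-like cells at 5.64. This order turned on the 30 CD8 T-like cells of the ILC1-marker cluster, which held 395 of the class's Gzmb UMIs: the 137 CD8 T-like cells outside it and the Ccr7/Lef1 cluster stood at 4.89 (4.33–5.49), under the NK-like level. In the fibrotic liver the same classes held 2.51, 2.21 and 4.32. Cxcr6 T-like cells held 2.88 and 1.204.

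Gzmk UMIs lay mostly in CD8 T-like cells. The level there stood at 0.965 in the normal and 1.35 in the fibrotic library, against 0.0597 and 0.172 in Cxcr6 T-like cells. In NK-like cells 1 UMI was found in the normal library and 0 in the fibrotic one. Of its 123 UMIs in the normal library, 92 lay in CD8 T-like cells.

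Prf1, which makes the pore, was highest in NK-like cells, at 8.40 and 8.28. CD8 T-like cells held 1.36 and 0.986, and Cxcr6 T-like cells 0.471 and 0.482. Nkg7, a granule membrane protein, was spread over all 3 classes, at 18.5 and 9.45 in NK-like, 10.8 and 5.91 in CD8 T-like and 6.73 and 3.99 in Cxcr6 T-like cells. Each class was thus lower in the fibrotic library, as the ratios given further on show.

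Fasl stood at 2.04 and 2.06 in ILC1-marker cells without a Cd3 UMI, 1.59 and 1.71 in NK-like, 1.16 and 1.02 in CD8 T-like and 1.17 and 1.07 in Cxcr6 T-like cells. NK-like over CD8 T-like cells gave a ratio of 1.37 (0.965–1.92) in the normal and 1.67 (1.05–2.63) in the fibrotic library. Ifng in the normal liver stood at 2.70 in NK-like, 2.49 (2.18–2.82) in CD8 T-like and 2.59 in Cxcr6 T-like cells, and highest at 4.29 in ILC1-marker cells without a Cd3 UMI. In the fibrotic liver the corresponding values were 1.44, 0.438 (0.281–0.652), 0.757 and 0.279.

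Klrk1 lies at chr6:129610323-129623864 and Klrd1 at chr6:129591782-129598775, 11.5 kb apart and on opposite strands. Klrk1 stood at 8.13 and 6.83 in NK-like, 7.61 and 8.02 in ILC1-marker cells without a Cd3 UMI, 2.31 and 1.93 in CD8 T-like and 2.54 and 1.995 in Cxcr6 T-like cells. Klrd1 stood at 7.15 and 6.83, 6.43 and 8.19, 3.08 and 2.12, and 2.20 and 2.10 in the same order. Both receptors were thus at similar levels in NK-like and ILC1-marker cells. Eomes, which sets NK identity apart from ILC1, stood at 4.11 and 2.99 in NK-like and 0.787 and 1.205 in CD8 T-like cells. In ILC1-marker cells without a Cd3 UMI it had 0 UMIs in the normal and a level of 0.223 in the fibrotic library, and in Cxcr6 T-like cells it had 4 UMIs in each.

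**Figure D1:**
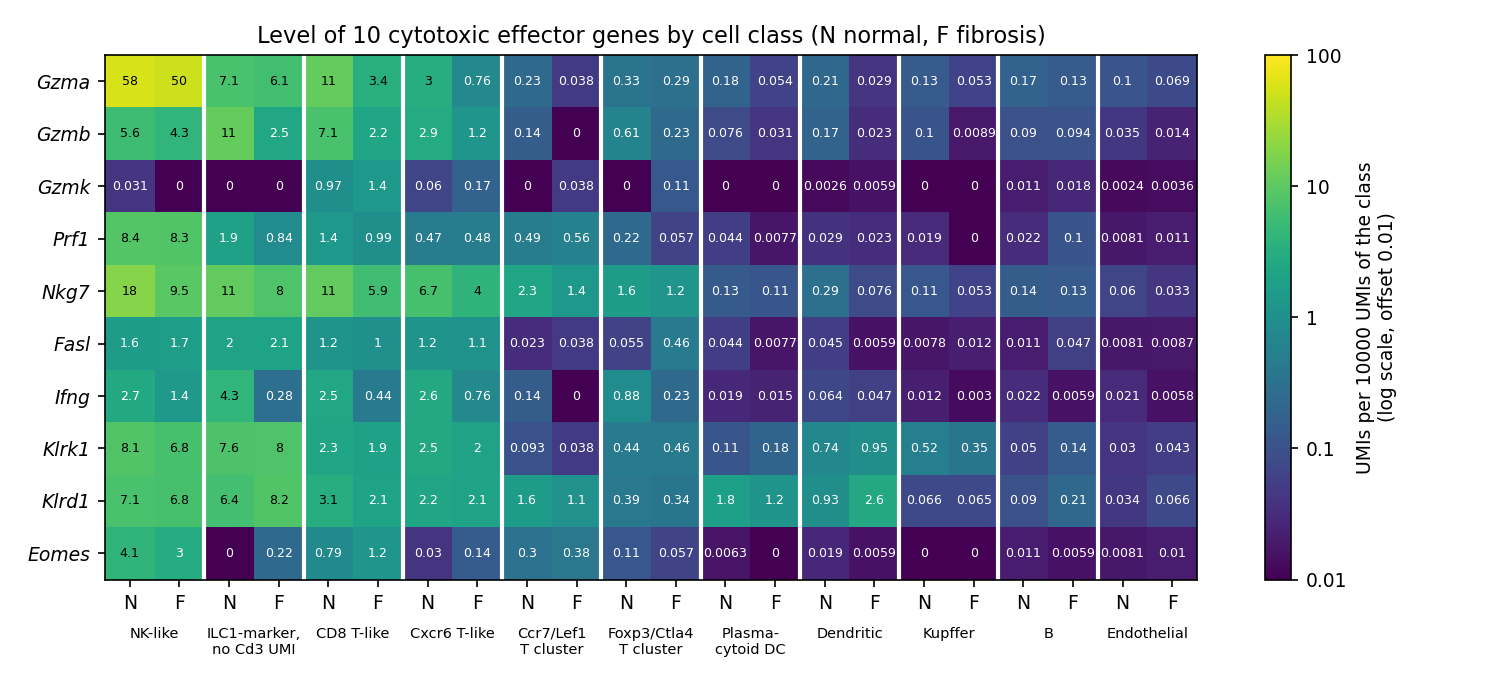
Heatmap of UMIs per 10000 of the 10 genes (rows) in cell classes (columns) of the normal and the fibrotic liver, 1 library each. Gzma in NK-like cells is the highest value, at 58.3 in the normal and 50.2 in the fibrotic library, and B-cell-like cells stay near 0.

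Most UMIs of the 10 genes lay in NK/T cells, 80.9% in the normal and 66.3% in the fibrotic library, although these cells held 10.3% and 4.49% of all UMIs. Without the endothelial-led and unnamed sub-clusters the shares were 69.2% and 58.2%. The shares were lower for the receptors, 56.6% and 38.1% for Klrd1 and 61.9% and 53.9% for Klrk1. The dendritic cluster held 17.2% and 27.1% of the Klrd1 UMIs and 15.6% and 14.4% of the Klrk1 UMIs. Plasmacytoid dendritic cells, which carry no T-cell receptor, held 13.8% and 9.44% of the Klrd1 UMIs. Their Klrd1 level was 1.78 in the normal and 1.18 in the fibrotic library, a ratio of 0.659 (0.537–0.805), and 60.4% and 51.9% of these cells had a UMI before thinning. In the dendritic cluster (470 and 185 cells) the Klrd1 level was 0.933 (0.838–1.04) and 2.57 (2.34–2.83), and 26.2% and 63.2% of its cells had a Klrd1 UMI. Its Klrk1 level was 0.737 and 0.948, with a UMI in 28.3% and 47.0% of cells. The leading genes of this cluster differed between the libraries, so its levels are set side by side and not compared. Of the dendritic cells with a Klrd1 UMI, 23 of 123 and 9 of 117 also had a UMI of a Cd3 gene or Ncr1, which mark T and NK cells. Klrk1 was also detected in Kupffer cells, the resident macrophages, at 0.525 and 0.346, a ratio of 0.660 (0.511–0.852), against 0.0298 and 0.0426 in endothelial cells and 0.0505 and 0.135 in B-cell-like cells.

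The fibrotic library was then compared with the normal library within each class. A gene was examined where it reached 0.5 UMIs per 10000 in either library, and a ratio past 2-fold was counted. Across genes the median ratio was 1.22 in NK-like, 1.16 in CD8 T-like and 1.17 in Cxcr6 T-like cells, so a ratio of 1 lay slightly below the middle of all genes.

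In NK-like cells 0 of 9 members examined passed 2-fold, against 30.1% of 5074 genes, 19.0% higher and 11.0% lower. The median ratio of the members was 0.841. Gzma had a ratio of 0.862 (0.797–0.933), Prf1 of 0.985 (0.804–1.204), Fasl of 1.07 (0.667–1.70), Klrk1 of 0.841 (0.676–1.04) and Klrd1 of 0.956 (0.765–1.19). The lowest were Nkg7, at 0.511 (0.430–0.605), and Ifng, at 0.534 (0.334–0.830), and both passed 2-fold when ratios were taken relative to the median of all genes. The count of 0 depended on the settings and rose to as many as 4, and over 14 settings Ifng was past 2-fold in 8, Nkg7 in 6, Gzmb in 4 and Eomes in 2. Eomes stood at 0.728 (0.523–1.001), with a range of 0.451–1.099 over the settings, and Gzmb at 0.766 (0.583–1.001), with a range of 0.321–1.06.

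In CD8 T-like cells 3 of 10 members were lower past 2-fold and 0 higher, against 6.75% of 4813 genes lower and 9.70% higher, 16.5% in all. They were Ifng, at 0.176 (0.111–0.269), Gzma, at 0.294 (0.251–0.344), and Gzmb, at 0.309 (0.253–0.376). In the normal library 30 of the 229 cells lay in the ILC1-marker cluster and held 685 of the 1093 Gzma UMIs, and without the cells of that cluster and of the Ccr7/Lef1 cluster the Gzma ratio was 0.638. Ifng was past 2-fold in 16 of 16 settings, Gzmb in 13 of 16, with ratios up to 0.587, and Gzma in 11 of 16, with ratios up to 0.875. The count of 3 was 1 with no mitochondrial limit, at resolution 1.5 and without the top doublet scores. Nkg7 stood at 0.550 (0.484–0.624), Klrd1 at 0.686 (0.549–0.854) and Prf1 at 0.723 (0.516–0.9998). Gzmk and Eomes lay on the other side of 1, at 1.40 (1.02–1.92) and 1.53 (1.08–2.16). Outside the ILC1-marker and Ccr7/Lef1 clusters, the interval of no member lay wholly above 1. The Gzmk ratio was 0.514 when only cells of clusters named CD8 T or Cxcr6 T were used, which leaves out the cycling cluster among others, and above 1 in the other settings. Fasl stood at 0.878 (0.625–1.22) and Klrk1 at 0.838.

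In Cxcr6 T-like cells 3 of 7 members examined were lower past 2-fold and 0 higher, against 8.55% of 4973 genes lower and 13.3% higher, 21.8% in all. Gzma stood at 0.248 (0.154–0.381), Ifng at 0.292 (0.181–0.449) and Gzmb at 0.419 (0.287–0.593). Nkg7 stood at 0.593 (0.485–0.720), Klrk1 at 0.786 (0.584–1.04), Fasl at 0.910 (0.598–1.34) and Klrd1 at 0.953 (0.711–1.26). The Gzma value rested on few cells, since 95.5% of its 22 fibrotic UMIs lay in 3 cells. Of its 408 normal UMIs, 355 lay in the 18 cells of the class that belonged to the ILC1-marker cluster.

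In ILC1-marker cells without a Cd3 UMI 3 of 8 members were lower past 2-fold and 0 higher, against 13.1% and 20.2% of genes. The lower ones were Ifng, at 0.065 (0.020–0.165), Gzmb, at 0.225, and Prf1, at 0.433. These were 28 and 45 cells, and the normal ones held 40 Ifng, 104 Gzmb and 18 Prf1 UMIs. No other setting was run for this class. Its 6 cycling markers summed to 0.965 in the normal and 8.41 in the fibrotic library, and its 5 neutrophil markers to 0.107 and 4.51. The 6 Kupffer markers summed to 2.89 and 12.1 there, and the 5 hepatocyte markers to 165 and 14.4. The part of these differences in the ratios was not tested.

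**Figure D2:**
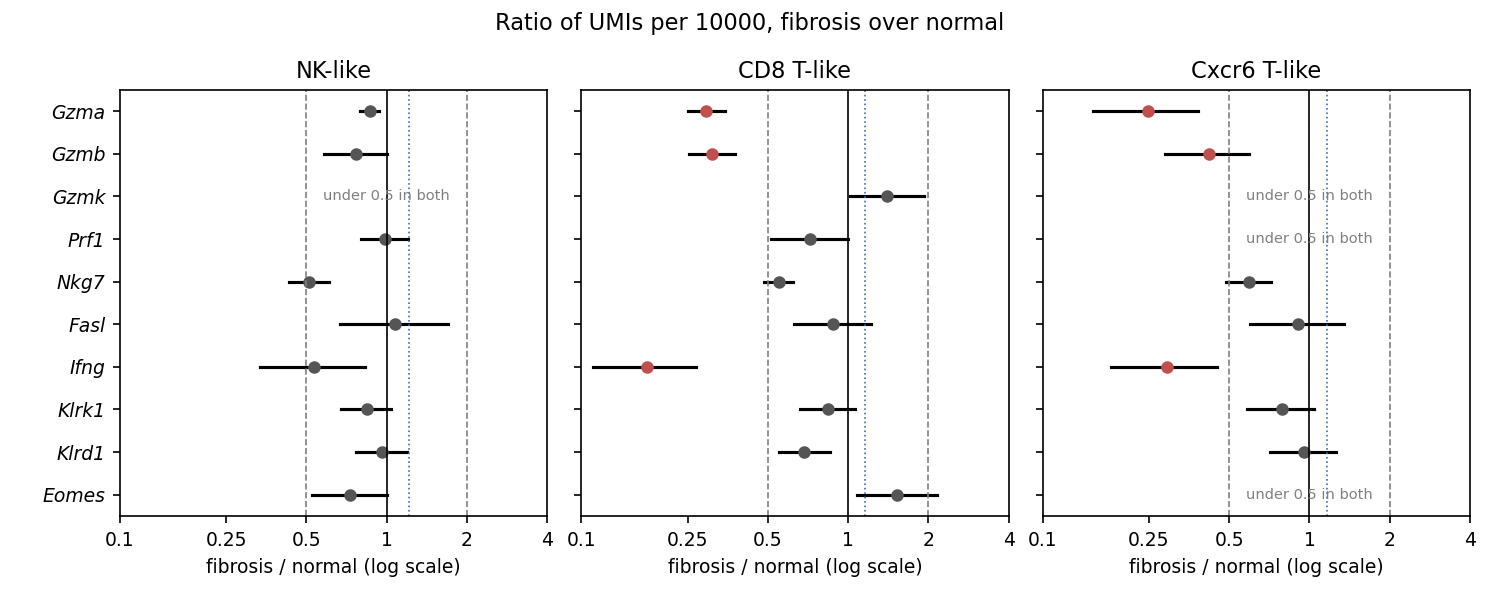
Ratios of the fibrotic over the normal level (log axis) of the members in NK-like, CD8 T-like and Cxcr6 T-like cells, with 95% intervals for counting error. Dashed lines mark 2-fold, the dotted line the median ratio of all genes examined, and red points lie past 2-fold: 0 in NK-like and 3 in each of the other classes.

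RNA of other cells moved with the libraries. In the 3 classes, 5 hepatocyte markers summed to 147–183 UMIs per 10000 in the normal and 15.1–25.4 in the fibrotic library, and 5 erythroid markers to 85.9–114 and 0.913–1.87. The 6 Kupffer markers went the other way, from 2.87–4.39 to 12.5–20.6, and the 7 macrophage markers from 2.46–2.58 to 10.8–15.3, as did the 6 markers of hepatic stellate cells and myofibroblasts, from 0.368–0.630 to 4.68–8.49, and the 8 endothelial markers, from 7.35–9.48 to 10.9–17.2. The 6 plasma cell markers went from 2.50 to 10.8 in CD8 T-like cells, and stood at 3.28 and 3.95 in NK-like and 3.02 and 2.75 in Cxcr6 T-like cells. The part of this RNA in the ratios was not tested. In Kupffer cells themselves Gzma stood at 0.132 and 0.0533.

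The CD8 T-like cells were not alike. In the normal library the 30 cells of the ILC1-marker cluster held Gzma at a level of 50.1 (46.4–54.0) and Gzmb at 28.9. These cells had Cd8a at 9.22 but Cd8b1, the other chain of the CD8 heterodimer, at 0.146 (2 UMIs), against 6.60 and 5.38 in the remaining 199 cells. In the fibrotic library 5 of 143 cells lay there, with Gzma at 3.14 and Gzmb at 13.7. CD8 T-like cells in the Ccr7/Lef1 cluster (62 and 36) had 2 and 0 Gzma UMIs. In all other CD8 T-like cells (137 and 102) Gzma stood at 7.06 and 4.50, a ratio of 0.638 (0.532–0.763), where 7.19% of genes were lower past 2-fold, so it no longer passed 2-fold without these cells. Gzmb, at 4.89 and 2.19, kept a ratio of 0.448 (0.348–0.572), and Ifng, at 3.39 and 0.585, a ratio of 0.173 (0.107–0.267). Gzmk stood at 1.58 and 1.86 and Eomes at 1.10 and 1.45 in these cells, and both were near 0 in the ILC1-marker cluster. The clusters that made up the classes also differed between the libraries. In the fibrotic library 56 CD8 T-like cells, against 11 of 229 in the normal one, lay in a cluster named from cell-cycle genes, with Gzmk at 2.41 and Gzma at 6.65 in the fibrotic cells. Its 74 cells had the proliferation marker Mki67 at 5.27, against 17.3 in the 27 cells of the normal cluster of that name, so the sizes of these clusters are given and not compared. In the normal library 82 CD8 T-like and 69 Cxcr6 T-like cells lay in a cluster named CD8 T. No fibrotic cluster took that name in the main setting, and 32 of the fibrotic CD8 T-like cells lay in the cluster named Cxcr6 T. The ratios within both classes, also those of the CD8 T-like cells outside the ILC1-marker and Ccr7/Lef1 clusters, thus compare cells drawn from different clusters, and the part of this in them was not tested. Among Cxcr6 T-like cells outside the ILC1-marker cluster (290 and 71), Gzma stood at 0.415 and 0.192. Both lay under the level at which genes were examined, so its call was lost through that floor, while the fibrotic level was still the lower. Gzmb there stood at 2.03 and 0.691 and Ifng at 2.58 and 0.691, ratios of 0.341 and 0.268, where 8.66% of genes were lower past 2-fold.

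**Figure D3:**
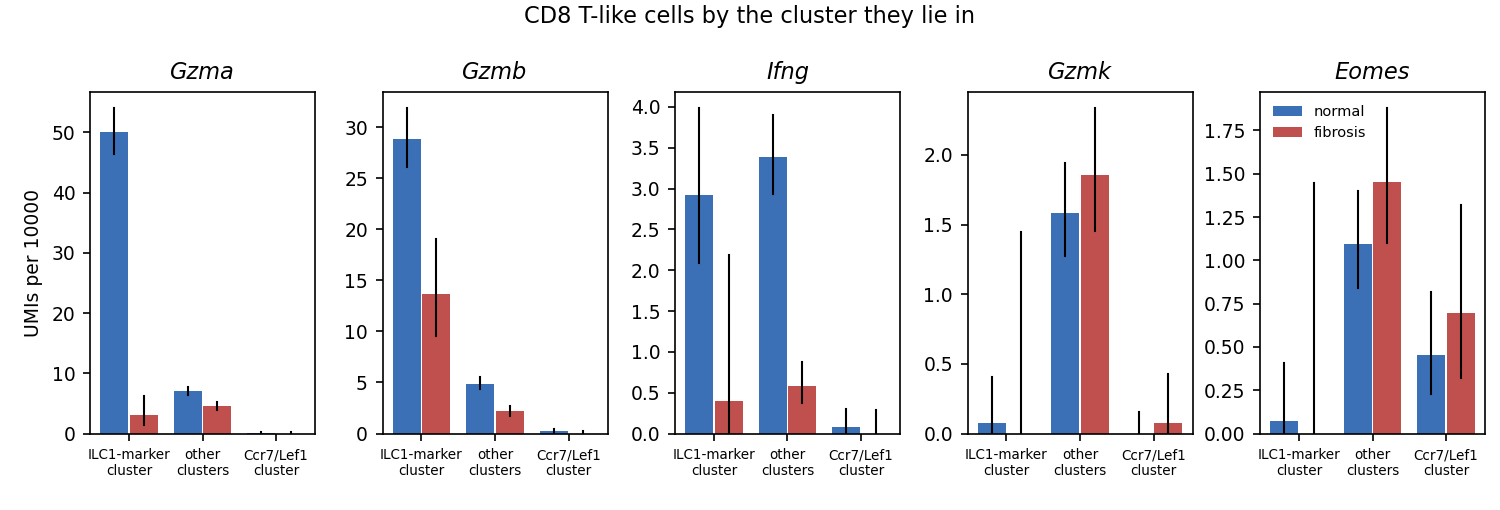
Levels of members in the parts of the CD8 T-like class in both libraries, in UMIs per 10000 with 95% exact Poisson intervals; each gene has its own vertical axis. In the normal liver Gzma and Gzmb are highest in the ILC1-marker cluster (50.1 and 28.9), whereas Gzmk and Eomes are near 0 there; the fibrotic bars of that cluster rest on 5 cells.

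Thinned to 1000 UMIs per cell, the share of cells with a UMI is given at 1 depth for all classes. In NK-like cells 89.7% of normal (87 of 97) and 84.7% of fibrotic cells (72 of 85) had a Gzma UMI. In CD8 T-like cells the share with Ifng was 19.3% (14.4–25.03) and 2.80% (0.767–7.01), and with Gzmb 28.9% (23.2–35.3) and 11.2% (6.53–17.5). Gzmk was found in 7.46% and 8.39% of these cells and Eomes in 5.26% and 9.79%. In Cxcr6 T-like cells Ifng was found in 19.5% and 7.59% and Gzmb in 16.6% and 7.59%. The share in B-cell-like cells, at median depths of 2776.5 and 2029 UMIs before thinning, was 1.84% and 2.02% for Gzma, 1.17% and 1.09% for Gzmb, and for Ifng 0 of 597 and 0 of 642 cells. The fibrotic Gzma share in Cxcr6 T-like cells, 2.53%, was close to that background.

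**Figure D4:**
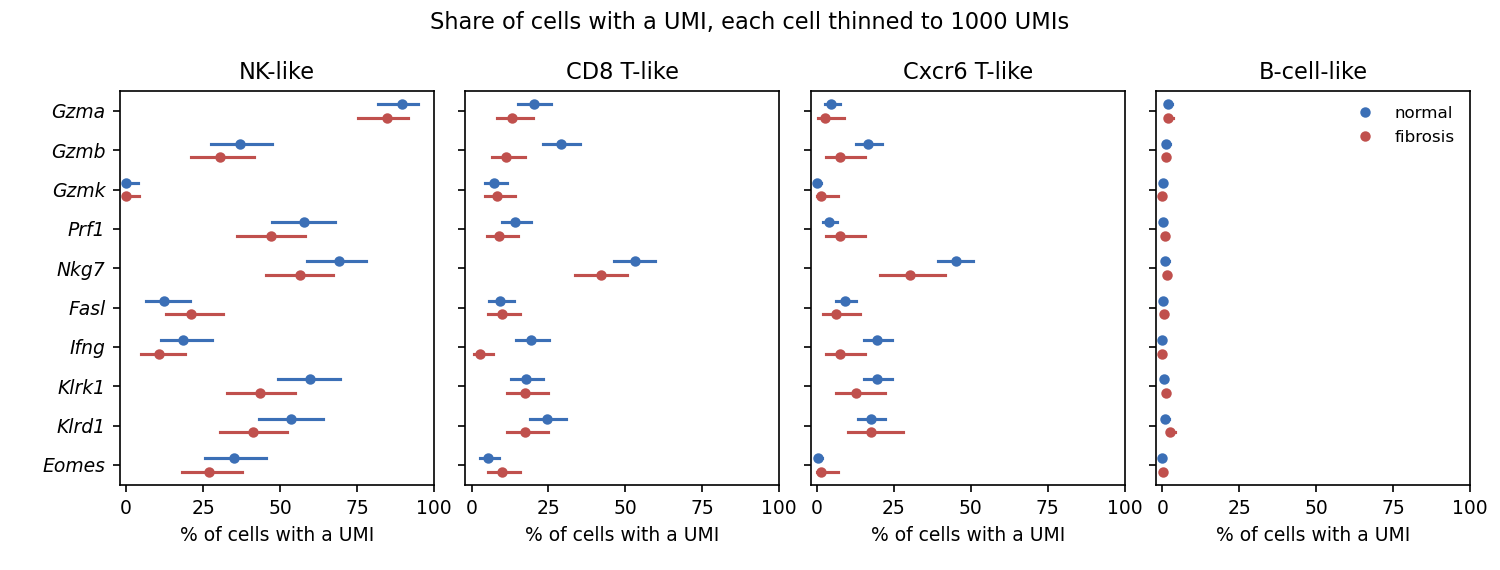
Share of cells (percent) with a UMI of each member after thinning to 1000 UMIs, with 95% exact binomial intervals, by class and library. Ifng in CD8 T-like cells is at 19.3% in the normal and 2.80% in the fibrotic library, and B-cell-like cells give the background.

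The members were also counted together within single cells at that depth. NK-like cells had 4.33 and 3.62 of the 10 members on average, CD8 T-like cells 1.996 and 1.41, and Cxcr6 T-like cells 1.36 and 0.949. At least 3 members were found in 86.6% and 76.5% of NK-like cells, in 35.1% (28.9–41.7) and 18.2% (12.2–25.5) of CD8 T-like cells, and in 0 B-cell-like cells of either library. In normal CD8 T-like cells Gzma and Gzmb were found together in 33 cells, 14.5%, against 5.84% if they were independent. Of these 33 cells 19 were among the 30 of the ILC1-marker cluster, where 63.3% had both against 60% if independent, and 14 were among the 136 cells of this depth outside that cluster and the Ccr7/Lef1 cluster, 10.3% against 5.34%. Gzma and Gzmk were found together in 7 normal and 4 fibrotic cells. Gzmb and Ifng were found together in 0 of 143 fibrotic cells, where independence would give 0.313%, under 1 cell.

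**Figure D5:**
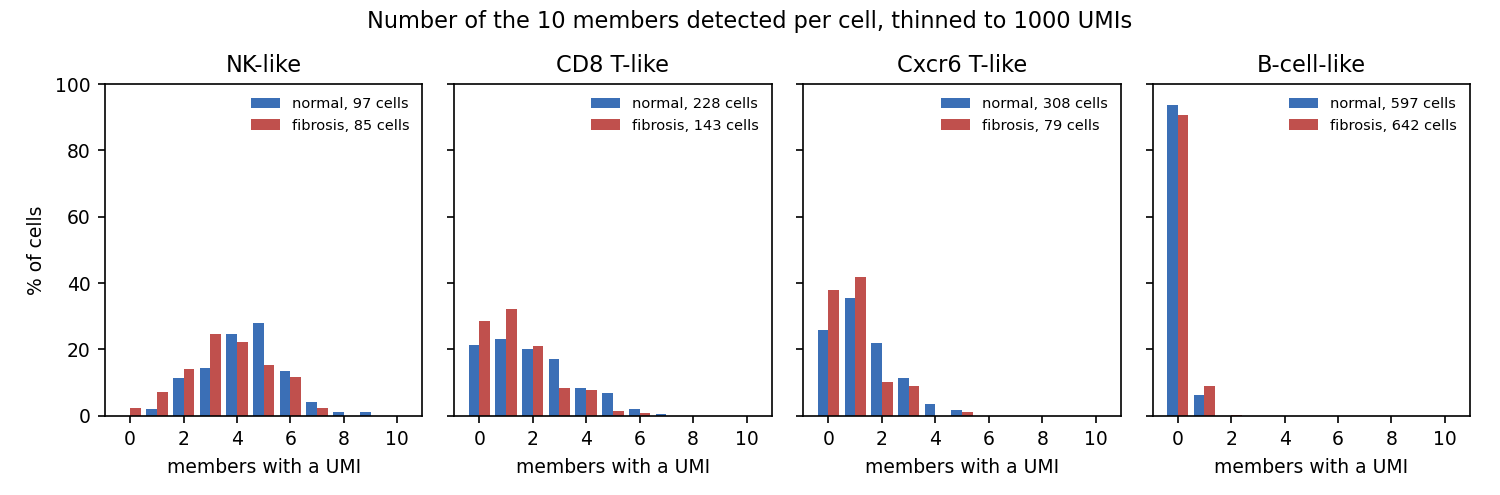
Percent of cells by number of the 10 members detected per cell at 1000 UMIs, by class and library. NK-like cells average 4.33 members in the normal and 3.62 in the fibrotic library, and CD8 T-like cells 1.996 and 1.41.

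Other genes of these pathways were taken from a list of 48 found in the tables. In NK-like cells 29 were examined, and 5 were higher and 2 lower past 2-fold, against 19.0% and 11.0% of all genes. Ctsc, the protease that activates granzymes, stood at 1.53 and 5.50, a ratio of 3.59. Irf8, a transcription factor, had a ratio of 2.46, the serpin Serpinb9b of 2.22 and the NKG2D ligand Ulbp1 of 2.90. Ifngr2, a chain of the interferon-gamma receptor, had 0 normal and 14 fibrotic UMIs, at least 8.12-fold higher with 3 counts taken as the limit of the normal class. Tyrobp, an adaptor of NK receptors, had a ratio of 0.472 and Tox, a transcription factor, of 0.415. In CD8 T-like cells 8 of 32 examined were higher and 0 lower, against 9.70% and 6.75% of all genes. Outside the ILC1-marker and Ccr7/Lef1 clusters 4 of 30 were higher in CD8 T-like cells and 0 lower. B-cell-like cells also had 3 of 15 higher and 0 lower. The shares of all genes higher in these 2 sets of cells are not given. In Cxcr6 T-like cells 7 of 32 were higher and 0 lower, against 13.3% and 8.55%. Those of CD8 T-like cells were Serpinb9, an inhibitor of granzyme B, at 2.07, Ifngr1 at 2.03, Ifngr2 at 3.07, Ctsc at 2.04, the secretion factor Stxbp2 at 2.18, Irf8 at 2.47, Zeb2, a transcription factor, at 2.09 and the checkpoint receptor Ctla4 at 2.23. Those of Cxcr6 T-like cells were Ctla4, at 8.08 (5.63–11.7), Pdcd1, the receptor PD-1, at 6.91 (3.35–14.7), Zeb2 at 4.68, Irf8 at 3.39, Ctsc at 2.47, Rab27a, which docks granules for release, at 2.43 and Ulbp1 at 2.11. The Cxcr6 gate had taken 10 of its 79 fibrotic cells, against 3 of 308 normal ones, from the cluster led by Foxp3 and Ctla4. Without that cluster and the clusters led by Cd163l1, a gene of gamma-delta T cells (284 and 61 cells left), Pdcd1 had 8 and 2 UMIs, a ratio of 1.36 (0.140–6.80), and Ctla4 a ratio of 3.88 (2.23–6.67). Zeb2 stood at 4.76, Ctsc at 2.33, Rab27a at 2.11, Irf8 at 2.001 and Ulbp1 at 1.97 in these cells. Irf8 and Tyrobp were among the NK markers used for naming, and Ctla4 among those of regulatory T cells. The higher Ctsc and Irf8 stood beside the higher Kupffer and macrophage marker sums in the same cells, and their part was not tested.

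The genes whose levels ran most like each member were found by Pearson correlation over 35 classes of the 2 libraries, among 5770 genes; classes of 1 library share its depth and free RNA. Gzma was most like Klre1 (0.95), Gzmb like Tbx21 (0.96), Nkg7 like Ctsw (0.98; a marker used to name NK/T clusters), Fasl like Samd3 (0.97), Ifng like Tbx21 (0.94), Prf1 like Klra9 (0.93), Klrk1 like Klrb1f (0.93), Klrd1 like Padi2 (0.95) and Eomes like Klra7 (0.89). Gzmk stood apart, with Tcrg-C2 at 0.70 as its closest gene, and its correlation with the other members was 0.33–0.50, whereas the others correlated at 0.616 or more among themselves.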

How the data were processed

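The authors aligned reads with Cell Ranger 3.0.1 to mm10 and deposited UMI counts per gene and cell barcode, 1 table per library, without normalization. Cells under 10% mitochondrial UMIs and above 200 genes were used, following the study's methods. Each library was clustered with scanpy 1.11.5 (2000 variable genes, 10 principal components, 20 neighbours, resolution 0.8). The 10 members took no part in clustering or naming, which used marker lists. Several naming choices were made after the clusters had been seen. A cluster joined the NK/T class where at least 12 of 16 markers were raised over 2-fold; clusters in the class had 14 to 16 raised and all others at most 1, so no cut between these changes it. Within that class only lymphocyte, cycling and endothelial lists were used for names, because an earlier version had called a CD8 T cluster erythroid. The planned clusters gave no CD8 T class in the fibrotic library, so CD8 T-like and Cxcr6 T-like cells were gated, outside the NK-like cluster, on UMIs of Cd3, Cd8 and Cxcr6 genes. Scrublet called 3 normal and 0 fibrotic cells and had not worked, so it removed none; the methods state that doublets had been excluded. Levels, ratios (exact conditional intervals) and shares (exact binomial intervals) were computed with scipy 1.17.1 and cover counting error only. The members and lists were chosen with earlier results of these data known. Named genes were the 10 members, listed partners past 2-fold and the closest genes of each member. The ratio step was tested on simulated data. Alternatives included other mitochondrial limits, resolutions, components, gates and floors.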

Additional observations from a re-analysis of the deposited data

Results flagged for a closer look

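Members' UMIs were also found in cells left out of every comparison because their mitochondrial share was over the limit. In the normal library 659 such cells held 1506 UMIs of the 10 genes, a level of 5.44 per 10000, led by Nkg7 with 429. In the fibrotic library 305 such cells held 346 UMIs, a level of 1.68 per 10000, led by Klrd1 with 92. Among the cells kept, the 10 genes summed to 0.617 and 0.878 per 10000 in B-cell-like cells, 0.307 and 0.264 in endothelial cells and 4.10 and 1.44 over the whole libraries. The cell types of the left-out cells were not determined.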

How the results depend on the processing

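No paired analysis was possible because each group is 1 library. No ratio past 2-fold changed direction, but 11 of 26 member ratios, none of them past 2-fold, lay on both sides of 1 over the settings: Gzmk (0.514–1.41), Klrk1 (0.583–1.26) and Fasl (0.508–1.24) in CD8 T-like cells, Klrk1 (0.595–1.17), Fasl and Klrd1 in Cxcr6 T-like cells, and Prf1 (0.638–1.38), Fasl (below 1 in 7 of 14), Eomes (0.451–1.099), Gzmb (0.321–1.06) and Klrd1 in NK-like cells. Ifng was lower past 2-fold in CD8 T-like cells in 16 of 16 settings and in Cxcr6 T-like cells in 16 of 16, and Gzmb in 13 of 16 and 16 of 16. Gzma was so in 11 of 16 and 12 of 16, with ratios of 0.0407–0.875 in CD8 T-like cells. Among these settings, the floor of 0.1 could not move a ratio already examined. Classes by single-cell UMIs added only 3 normal CD8 T-like cells and 1 fibrotic Cxcr6 T-like cell. The count of members past 2-fold in NK-like cells (0) became 2 with a mitochondrial limit of 5%, 2 with none, 1 at resolution 1.5, 3 without the top 5% of doublet scores, 2 with classes by single-cell UMIs, 2 by a mean over cells, 4 by UMIs per cell, 2 without the 3 top cells of each gene and, added after seeing the data, 2 relative to the median ratio. In CD8 T-like cells (3) it became 5 with a limit of 5%, 1 with none, 1 at resolution 1.5 and 1 without the doublet scores. In Cxcr6 T-like cells (3) it became 5 with a limit of 5% and 5 with a floor of 0.1, of which 2 were higher. The share of all genes past 2-fold was not computed in these settings, so no background stands beside these counts. UMIs per cell are not scaled to depth, and NK-like cells had medians of 3282 normal and 2272.5 fibrotic UMIs. Shares of NK/T cells moved too. With a limit of 5%, NK-like cells were 17.1% and 46.4%, CD8 T-like fibrotic cells 13.4% and Cxcr6 T-like normal cells 27.4%. The NK/T clusters left at that limit held 39, 4, 54 and 20 normal and 52, 17 and 43 fibrotic cells. The main setting had 1011 and 675, so the shares, counts and range ends at 5% rest on few cells. With no limit, NK-like cells were 19.4% and 21.1% and Cxcr6 T-like normal cells 27.2%. At resolution 1.5, NK-like normal cells were 15.3% and CD8 T-like normal cells 18.8%. Without the top doublet scores, NK-like cells were 22.4% and 24.2% and CD8 T-like normal cells 20.04%. By single-cell UMIs, NK-like cells were 12.2% and 17.9%. The share of the members' UMIs in NK/T cells was 71.5% and 72.3% at 5%, 81.9% in the normal library with no limit, 79.6% with 20 principal components, and 81.9% and 68.2% without the top doublet scores. Without the endothelial-led and unnamed sub-clusters, an alternative added after seeing the data, NK-like cells were 12.6% and 17.3%, CD8 T-like fibrotic cells 26.8%, Cxcr6 T-like cells 36.1% and 15.1%, and the members' UMIs in NK/T cells 69.2% and 58.2%. With no limit and without the doublet scores, a further cluster with ILC1 markers took the NK name, and at resolution 1.5 so did 2 further normal clusters of 29 and 28 cells; other causes were not tested. In the main setting clusters as classes gave no CD8 T value in the fibrotic library. A fibrotic cluster of 135 cells took that name with 20 principal components, and clusters of 66 and 143 cells did with no mitochondrial limit. Thinning moved 89 of 120 shares.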
